A study of Mus musculus with 39 samples.

Results

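AE9a leukaemia at its last transfer was compared with the transfer before it. The 3 mice of passage 4 (AE9a-P4) were set against 3 mice of passage 3 (AE9a-P3), taken by the titles of their arrays. These are 6 of the 39 arrays of the series, compared over all 22180 genes measured. That T cell genes appear at this transfer was known when the comparison was chosen, so the counts of their lists are a description. AE9a is a shortened form of the fusion between the transcription factor RUNX1 and its partner RUNX1T1 (ETO); it keeps the DNA-binding runt domain and gives myeloid leukaemia in mouse bone marrow transplants. Leukaemia was passed through recipient mice 4 times, and at the end stage of disease the donor-derived marrow cells were sorted by their CD45.1 allele. RNA of each mouse was put on 1 Affymetrix Mouse Gene 2.0 ST array. The series has 2 further leukaemia arms at the same 4 passages, AE9a with added miR-126 (AE9a+miR-126) and AE9a in marrow that lacks miR-126 (miR-126KO+AE9a), and 3 normal controls (NC) from passage 1. Every group held 3 mice; cells of the AE9a arm carried AE9a with neither miR-126 change at all 4 passages. The donor of each recipient is not in the labels. Mice of 1 passage may share 1 leukaemia, and p-values then reflect only how far mice within groups differ, pooled over all 13 groups. The labels give no age, sex or strain. CD45 is an antigen of leukocytes that mature red cells lack, so the CD45.1 sort does not part leukaemia cells from other donor-derived leukocytes.

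T cells recognise antigen through the T cell receptor, whose variable chains sit in the membrane with the CD3 chains, while CD8 or CD4 binds the antigen-presenting molecule beside it. Signals run through kinases such as Zap70 to adaptors, and activated CD8 T cells make perforin and granzymes, which kill target cells. Mature T cells are normally a minor part of marrow, and long stimulation of CD8 T cells is known to raise inhibitory receptors such as Tigit and the transcription factor Tox.

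Levels are RMA values on the log2 scale, where a difference of 1 is a 2-fold difference, and a ± after a difference is its standard error from the limma fit to all arrays. Pairwise correlations of arrays lay between 0.977 and 0.991 within passage 4, between 0.968 and 0.992 within passage 3 and between 0.959 and 0.977 across the passages. The pan-leukocyte gene Ptprc, which encodes CD45 itself, had levels of 11.02, 11.01 and 10.76 in passage 4 mice 1 to 3, against 10.84, 11.00 and 11.12 in passage 3 mice 1 to 3. Passage 4 mouse 1 stood apart from the other 2 mice of its passage: the mean level of 17 erythroid genes was 7.90 in it and 6.17 and 5.85 in mice 2 and 3, against 5.46 to 5.89 in passage 3. In these sorted bulk samples, more cells of a type and more RNA per cell cannot be told apart.

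A gene was called at a Benjamini-Hochberg adjusted p under 0.05 over all genes. Between passage 4 and passage 3, 98 genes were called (0.442% of those tested): 40 rose (0.18%) and 58 fell (0.261%). Of these, 36 rises and 52 falls were at least 2-fold. Without an adjustment, 555 genes were higher (2.5%) and 828 lower (3.73%) at p under 0.05, and the median difference of all genes was -0.04. The count rested on single mice: 19 genes were called without passage 4 mouse 2, 27 without passage 3 mouse 2, 31 without passage 4 mouse 3 and 53 without passage 3 mouse 3, against 125 without passage 4 mouse 1 and 130 without passage 3 mouse 1. Of the 40 rises, 33 had their 3 passage 4 levels all above their 3 passage 3 levels, an arrangement found in 6.16% of all genes; all 58 falls had them all below, as had 10.5% of all genes. The 12 largest rises without overlap held genes of T cells and the Y chromosome, and the plot of difference against p names the genes farthest out.

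**Figure D1:**
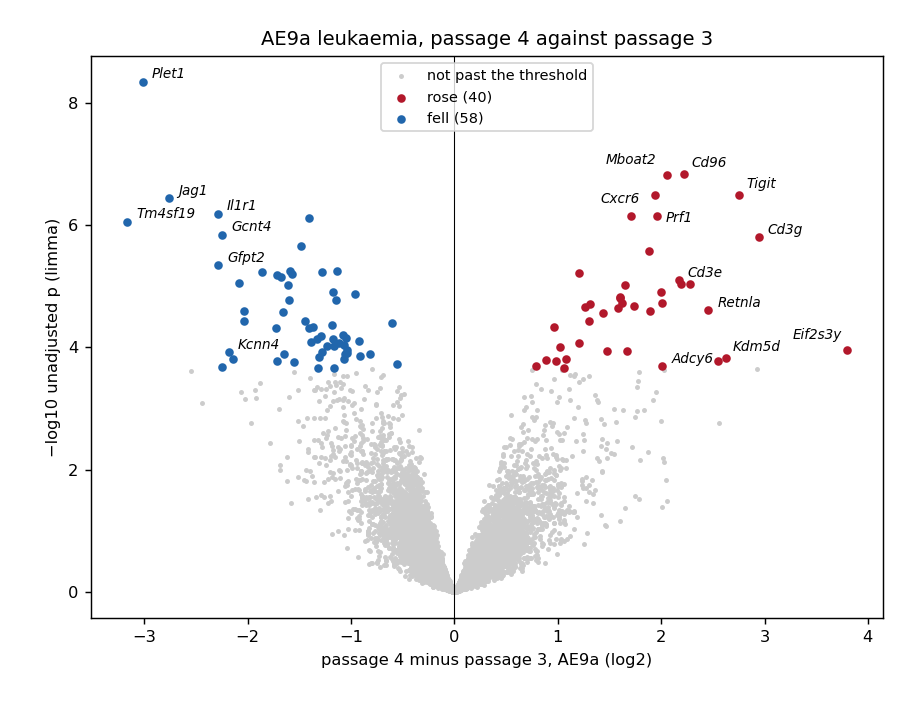
Difference between AE9a passage 4 and passage 3 (x axis, log2) against the unadjusted p of limma (y axis, −log10) for 22180 genes, 3 mice a group. Red points are the 40 genes that rose and blue points the 58 that fell at an adjusted p under 0.05; Eif2s3y lies farthest right and Tm4sf19 farthest left.

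Of the 12 measured members of a list of the T cell receptor complex and coreceptors, 5 rose and 0 fell. Of all genes, 0.18% rose and 0.261% fell. All 12 members were higher, and their median difference was 0.75, against -0.04 for all genes. Cd3g, a CD3 chain, had levels of 8.62, 9.96 and 9.65 in passage 4, against 5.21, 6.30 and 7.89 in passage 3. It rose by 2.94 ± 0.50 (7.68-fold, limma adjusted p = 0.00271), and passage 3 mouse 3 lay closest to passage 4. Cd3e, another CD3 chain, had levels of 8.16, 9.79 and 9.60 in passage 4, against 5.96, 7.12 and 7.90 in passage 3 (2.19 ± 0.41, adjusted p = 0.00714). The coreceptor chain Cd8a had 6.76, 8.63 and 8.13 in passage 4, against 5.15, 6.01 and 6.37 in passage 3 (2.00 ± 0.38, adjusted p = 0.00855). Its partner chain Cd8b1 had 7.39, 9.13 and 9.14 in passage 4, against 5.72, 6.50 and 7.40 in passage 3 (2.01 ± 0.40, adjusted p = 0.0105). In Cd8b1 passage 4 mouse 1 and passage 3 mouse 3 met at nearly the same level, and every other passage 4 level was above every passage 3 level. Cd5, a scavenger-receptor family protein that damps T cell receptor signals, rose by 0.96 ± 0.20 (adjusted p = 0.0186). Cd4, the coreceptor of helper T cells, had 5.38, 6.64 and 5.14 in passage 4, against 4.87, 5.07 and 5.29 in passage 3, and did not pass (adjusted p = 0.746). Cd3d, the remaining measured CD3 chain, was 0.73 higher (adjusted p = 0.332), the costimulatory receptor Cd28 0.77 higher (adjusted p = 0.157) and Thy1, a T cell surface glycoprotein, 0.17 higher (adjusted p = 1). Cd2, Cd6 and Trat1 did not pass either, and Cd247 was not measured. The count of 5 was 7 without passage 4 mouse 1 and 3 without passage 3 mouse 2; it was 1, with Cd3g alone, without passage 3 mouse 1, passage 4 mouse 2 or passage 4 mouse 3. With the 6 compared arrays fitted alone it was 0.

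The 300-base promoter windows of 4 called genes are shown because Cd96, Tigit, Prf1 and Cd3g moved together and AE9a binds DNA through its runt domain; capitals mark the runt-type motif TGTGGT or TGCGGT on either strand. Sequences are RefSeq's, build GRCm38.p6, read in the gene's direction from 250 bases before the start to 50 bases after it. Cd96 lies at chr16:46120199-46120498 on the minus strand, Tigit at chr16:43664135-43664434 on the minus strand, Prf1 at chr10:61297586-61297885 on the plus strand and Cd3g at chr9:44980382-44980681 on the minus strand.
Cd96: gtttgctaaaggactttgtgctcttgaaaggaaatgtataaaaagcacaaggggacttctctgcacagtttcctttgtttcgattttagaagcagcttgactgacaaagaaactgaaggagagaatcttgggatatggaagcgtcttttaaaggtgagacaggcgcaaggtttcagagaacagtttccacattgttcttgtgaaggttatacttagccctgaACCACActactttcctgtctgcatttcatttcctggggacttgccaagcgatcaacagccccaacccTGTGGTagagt
Tigit: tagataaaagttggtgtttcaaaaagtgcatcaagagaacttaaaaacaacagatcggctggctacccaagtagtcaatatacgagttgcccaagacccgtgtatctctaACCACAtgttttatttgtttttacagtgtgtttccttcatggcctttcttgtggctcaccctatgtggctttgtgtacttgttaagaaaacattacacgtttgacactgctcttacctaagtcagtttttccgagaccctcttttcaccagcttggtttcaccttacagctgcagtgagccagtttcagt
Prf1: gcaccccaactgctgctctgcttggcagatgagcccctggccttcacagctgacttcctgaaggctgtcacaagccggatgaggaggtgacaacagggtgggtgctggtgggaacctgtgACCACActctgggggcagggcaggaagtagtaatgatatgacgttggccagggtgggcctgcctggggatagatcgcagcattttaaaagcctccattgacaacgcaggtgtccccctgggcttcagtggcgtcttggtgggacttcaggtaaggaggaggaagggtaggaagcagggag
Cd3g: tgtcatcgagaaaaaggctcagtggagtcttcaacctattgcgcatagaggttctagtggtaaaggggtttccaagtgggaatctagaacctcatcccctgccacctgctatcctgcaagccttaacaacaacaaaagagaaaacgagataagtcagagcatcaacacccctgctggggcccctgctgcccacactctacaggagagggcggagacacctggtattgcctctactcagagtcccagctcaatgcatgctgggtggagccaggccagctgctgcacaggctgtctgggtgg
The motif was found at 2 places in the Cd96 window, 28 bases before the start and 39 bases after it. The windows of Tigit and Prf1 held it at 1 place each, 140 and 130 bases before the start. The Cd3g window held none. Of the 40 genes that rose 31 had a promoter in the table, and 10 of these (32.3%) held the motif, as did 6 of 45 (13.3%) among the genes that fell and 22.5% of all 27025 promoters. A match is a description of the letters and not a site, and whether AE9a acts on these genes was not tested.

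Among 14 measured genes of T cell receptor signalling 2 rose and 0 fell, against 0.18% and 0.261% of all genes. Their median difference was 0.75. Sh2d2a, an adaptor that binds the kinase Lck, had levels of 7.20, 9.06 and 8.89 in passage 4, against 5.17, 6.37 and 7.07 in passage 3 (2.17 ± 0.40, adjusted p = 0.00694). Themis, which tunes receptor signals in developing T cells, rose by 1.62 ± 0.32 (adjusted p = 0.0105), with passage 4 mouse 1 at 5.22 just under passage 3 mouse 3 at 5.27. Zap70, the kinase that docks on the CD3 chains, was 1.12 ± 0.30 higher and did not pass (adjusted p = 0.0945). Of 11 T lineage transcription factors 1 rose and 0 fell, with a median of 0.43. That gene, Tox, had levels of 5.91, 8.26 and 8.16 in passage 4, against 5.68, 5.60 and 5.85 in passage 3 (1.73 ± 0.35, adjusted p = 0.0115). Mice 2 and 3 of passage 4 carried the difference, and mouse 1 was only just above the passage 3 mice. Eomes, which drives CD8 effector and memory fates, was 0.95 ± 0.28 higher (adjusted p = 0.163).

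Of 15 measured genes of activated and regulatory T cells 3 rose and 0 fell, against 0.18% and 0.261% of all genes. The median difference was 0.76. In this list 11 genes were higher and 4 lower, the lowest by -0.75. Without overlap between the passages, 4 lay above and 1 below, against 6.16% and 10.5% of all genes. Tigit, an inhibitory receptor of T and NK cells, had levels of 8.01, 10.27 and 9.83 in passage 4, against 5.44, 6.74 and 7.67 in passage 3 (2.75 ± 0.42, 6.74-fold, adjusted p = 0.00135). Its ligand-sharing relative Cd96, which stood on no list, had 6.26, 7.52 and 7.56 in passage 4, against 4.44, 4.77 and 5.47 in passage 3 (2.22 ± 0.33, adjusted p = 0.00111). The chemokine receptor Cxcr6 had 5.89, 7.69 and 7.20 in passage 4, against 4.54, 4.89 and 5.54 in passage 3 (1.94 ± 0.30, adjusted p = 0.00135). In all 3 genes the groups did not overlap, passage 4 mouse 1 was lowest of its passage and passage 3 mouse 3 highest of its own. Fasl, the death ligand of activated T cells, rose by 1.06 ± 0.25 (adjusted p = 0.0499). Other inhibitory receptors did not pass: Lag3 was 1.39 ± 0.37 higher (adjusted p = 0.0978) and Pdcd1 1.14 ± 0.39 higher (adjusted p = 0.336). Foxp3, the defining factor of regulatory T cells, had 4.54, 4.79 and 4.83 in passage 4, against 4.90, 4.90 and 4.99 in passage 3 (adjusted p = 1). Of 9 naive and memory T cell genes 1 rose, Cd27, a costimulatory receptor (1.67 ± 0.38, adjusted p = 0.0347), 0 fell, and the median was -0.15.

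Of 17 measured cytotoxic and NK cell genes 2 rose and 0 fell, against 0.18% and 0.261% of all genes. Their median difference was 0.50. In this list 11 genes were higher and 6 lower, the lowest by -0.69. At an unadjusted limma p under 0.05, 8 were higher and 1 lower, against 2.5% and 3.73% of all genes. Perforin, Prf1, had levels of 7.14, 9.33 and 9.07 in passage 4, against 6.18, 6.65 and 6.84 in passage 3 (1.96 ± 0.31, 3.88-fold, adjusted p = 0.00173). Granzyme K, Gzmk, had 7.21, 9.08 and 8.18 in passage 4, against 6.17, 6.43 and 7.07 in passage 3 (1.60 ± 0.31, adjusted p = 0.00993). Granzyme B, Gzmb, had 7.21, 9.08 and 9.10 in passage 4, against 6.29, 5.86 and 7.14 in passage 3, and just missed the threshold (2.03 ± 0.49, adjusted p = 0.0506). Interferon gamma, Ifng, was 0.84 ± 0.21 higher (adjusted p = 0.0771). Ncr1, an activating receptor of NK cells, had 4.09, 4.18 and 4.35 in passage 4, against 4.39, 4.22 and 3.81 in passage 3. Granzyme A, Gzma, lay between 3.26 and 3.28 in passage 4, against 3.09 to 3.39 in passage 3. Ncr1 and Gzma were low in both passages and were named with their values seen. They do not stand for the other NK cell genes of the list.

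Of the called T cell genes with levels above, Cd3g, Tigit, Cd96, Cxcr6 and Prf1 kept their call when any 1 of the 6 mice was left out, with adjusted p-values up to 0.0463 for Cd3g, 0.0332 for Tigit, 0.0219 for Cd96, 0.0332 for Cxcr6 and 0.0451 for Prf1. Cd3e, Cd8a, Cd8b1, Cd5, Sh2d2a, Themis, Tox, Fasl, Cd27 and Gzmk did not. All 10 lost it without passage 4 mouse 2 and without passage 4 mouse 3. Without mouse 2 the adjusted p was 0.127 for Cd3e, 0.165 for Cd8a, 0.125 for Sh2d2a, 0.219 for Tox and 0.216 for Gzmk, and without mouse 3 it was 0.0809 for Cd3e, Cd8a and Sh2d2a. In the other leave-one-out fits, passage 3 mouse 1 took the calls of Cd3e, Cd8a, Cd8b1, Cd5, Sh2d2a, Themis, Fasl, Cd27 and Gzmk, and passage 3 mouse 2 those of Cd8b1, Cd5, Themis, Tox, Fasl, Cd27 and Gzmk. Fasl also lost its call without passage 3 mouse 3 (adjusted p = 0.058). With the 6 compared arrays fitted alone the first 5 genes did not pass, at adjusted p-values of 0.164 for Cd3g, 0.22 for Tigit, 0.0878 for Cd96, 0.189 for Cxcr6 and 0.25 for Prf1.

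**Figure D2:**
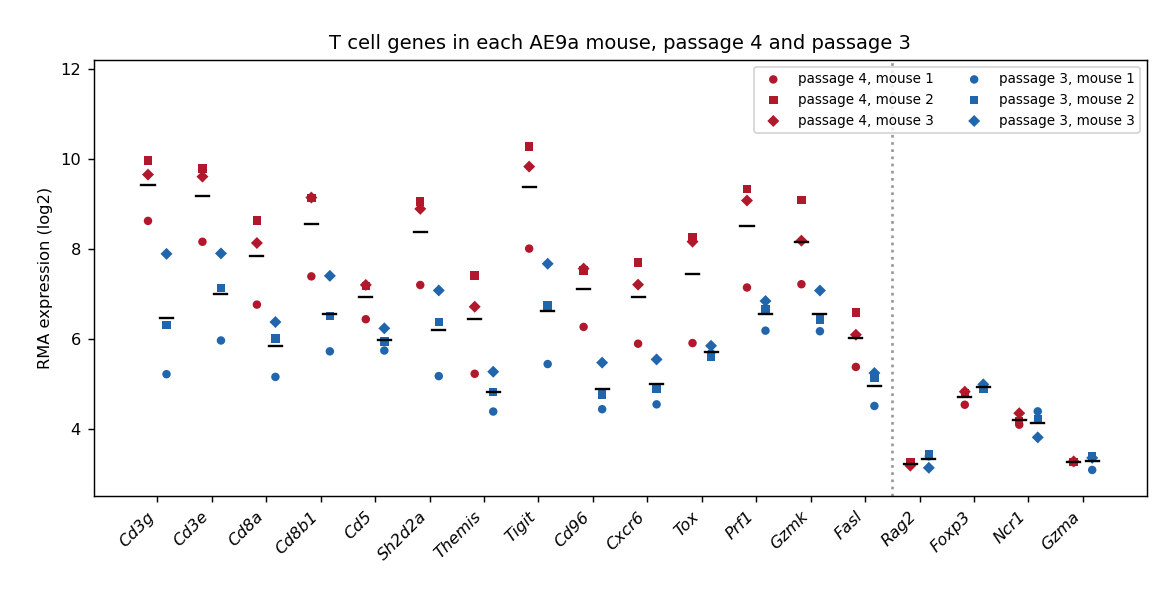
RMA level (log2, y axis) of 18 genes in each AE9a mouse, passage 4 in red left of passage 3 in blue, with 1 marker shape per mouse number and black bars at the means of 3 mice. The 14 genes left of the dotted line were called, Gzmk and Tox among them. Rag2, Foxp3, Ncr1 and Gzma, right of it, were not and stayed near or under 5. Foxp3, Ncr1 and Gzma were named with their values seen.

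Of 9 measured genes of immature thymocytes 0 rose and 0 fell, where 0.442% of all genes were called, and the median was -0.03; a difference from the T cell lists was not tested. Rag2, a recombinase of developing lymphocytes, had 3.24, 3.27 and 3.18 in passage 4, against 3.39, 3.44 and 3.13 in passage 3. Of 16 B cell genes and 8 plasma cell genes 0 passed in either direction, with medians of 0.01 and -0.13. The probe sets annotated to T cell receptor variable genes, tested among all probe sets, numbered 21, of which 0 passed and 16 were higher, with a median of 0.23 and a range of -0.55 to 2.55. Some of these hold identical values, so they are not independent measurements. The highest of them, annotated to Trav9d-3, had 9.68, 11.59 and 11.43 in passage 4, against 6.89, 8.49 and 9.68 in passage 3. It passed among genes (2.55 ± 0.59, adjusted p = 0.0417) and not among all probe sets (adjusted p = 0.0518). The other 4 probe sets with that symbol differed by 0.20 to 1.11 and did not pass, so which gene the highest one measures is uncertain.

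The genes whose pattern over the 12 AE9a arrays of all passages was most like the mean of Cd3d, Cd3e and Cd3g were all called in this comparison, and the arrays that made them rise enter the correlation too. Sh2d2a came closest, with a Pearson correlation of 0.99, followed by Setbp1 and the Trav9d-3 probe set at 0.983. Tigit and Cxcr6 followed at 0.978, Gzmk at 0.974, Rgs16, a G protein regulator, at 0.973, Cd27 at 0.962, Cd96 at 0.961 and Themis at 0.959. Taken as deviations from the passage means, the correlation was 0.968 for Sh2d2a and 0.849 for Cd27, the lowest of the 10.

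Interferon gamma, a product of activated T cells, induces guanylate-binding proteins and GTPases of cell-autonomous defence. Of 17 genes it induces 0 rose and 0 fell, where 0.442% of all genes were called. Their median difference was 0.63. In this list 15 were higher, 6 of them at an unadjusted p under 0.05, against 2.5% of all genes. Iigp1, such a GTPase, had 5.43, 7.87 and 8.28 in passage 4, against 4.86, 5.05 and 5.91 in passage 3 (1.92 ± 0.51, adjusted p = 0.0945). Gbp4 was 1.83 ± 0.51 higher (adjusted p = 0.119). Gbp8, a relative that stood on no list, rose by 2.28 ± 0.43 (adjusted p = 0.00714), with 6.84, 8.42 and 8.30 in passage 4, against 4.74, 5.53 and 6.45 in passage 3. Gbp8 lost its call without passage 4 mouse 2 (adjusted p = 0.123), passage 4 mouse 3, passage 3 mouse 1 or passage 3 mouse 2. Of 23 genes of the type I interferon response 0 passed, 20 were lower and the median was -0.26.

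Genes outside the T cell lists also rose. Mboat2, an acyltransferase of membrane phospholipids, had 6.03, 7.21 and 7.53 in passage 4, against 4.96, 4.77 and 4.88 in passage 3 (2.05 ± 0.30, adjusted p = 0.00111). Retnla, a secreted protein of alternatively activated macrophages, had 5.03, 6.03 and 7.75 in passage 4, against 4.03, 3.60 and 3.81 in passage 3 (2.46 ± 0.49, adjusted p = 0.0123). Passage 4 mouse 3 was far above the other mice in Retnla, and without it the adjusted p was 0.183; the call was also lost without passage 4 mouse 2, passage 3 mouse 2 or passage 3 mouse 3. Mboat2 kept its call when any 1 of the 6 mice was left out. Adcy6, an adenylyl cyclase, had 8.29, 8.16 and 7.89 in passage 4, against 6.63, 5.71 and 5.97 in passage 3 (2.01 ± 0.48, adjusted p = 0.0483). The call for Adcy6 was lost in 5 of 6 fits without 1 mouse, all but that without passage 3 mouse 1. Glp1r, the receptor of glucagon-like peptide, rose by 1.58 ± 0.32 (adjusted p = 0.0115), and Tlr3, a sensor of double-stranded RNA, by 1.02 ± 0.23 (adjusted p = 0.0309); both lost the call without passage 4 mouse 2 or 3 or passage 3 mouse 1 or 2. Among the 40 rises, passage 4 mouse 1 was the lowest of its passage in 33, against 42.7% of all genes, and passage 3 mouse 3 the highest of its passage in 28, against 30.8% of all genes.

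Of 4 sex-linked genes 2 rose and 0 fell, against 0.18% and 0.261% of all genes. The Y-linked translation factor gene Eif2s3y had 8.30, 7.69 and 7.64 in passage 4, against 3.84, 3.59 and 4.82 in passage 3 (3.80 ± 0.86, adjusted p = 0.0342). The Y-linked histone demethylase gene Kdm5d had 6.64, 5.93 and 6.10 in passage 4, against 3.45, 3.40 and 3.94 in passage 3 (2.63 ± 0.61, adjusted p = 0.0394). Y-linked Uty was 2.93 ± 0.70 higher and just missed the threshold (adjusted p = 0.0506). Xist, the RNA that coats the inactive X chromosome in female cells, had 11.62, 11.60 and 11.09 in passage 4, against 11.60, 11.34 and 11.42 in passage 3. High Xist and high Y-linked levels were measured in the same passage 4 arrays. In passage 4, mouse 1 was highest for the 3 Y-linked genes and lowest for Cd3g, Cd8a, Prf1 and Tigit. In passage 3, mouse 3 was highest for the 3 Y-linked genes and also highest for Cd3g, Cd8a, Prf1 and Tigit. The part of the Y-linked difference in the T cell result was not tested. The calls of Eif2s3y and Kdm5d were lost when any 1 of the 6 mice was left out, with adjusted p-values of 0.056 to 0.196 for Eif2s3y and 0.0754 to 0.196 for Kdm5d.

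Tm4sf19 had the largest fall of the 58. Tm4sf19, a membrane protein with 4 spans, had levels of 7.48, 6.98 and 7.30 in passage 4, against 10.78, 10.24 and 10.25 in passage 3 (-3.17 ± 0.52, 8.97-fold lower, adjusted p = 0.00178). Plet1, a lipid-anchored surface protein, had 6.64, 6.94 and 6.89 in passage 4, against 9.53, 10.02 and 9.96 in passage 3 (-3.01 ± 0.37, 8.07-fold lower, adjusted p = 0.000101). Both passages were tight and lay far apart, and Plet1 had the smallest p of all genes. Jag1, a ligand of Notch receptors, had 5.05, 4.72 and 4.64 in passage 4, against 6.83, 8.11 and 7.75 in passage 3 (-2.76 ± 0.43, adjusted p = 0.00135). Il1r1, the signalling receptor of interleukin 1, had 5.97, 6.07 and 5.81 in passage 4, against 7.30, 8.64 and 8.76 in passage 3 (-2.29 ± 0.37, adjusted p = 0.00173). Gcnt4, a glycosyltransferase that branches O-glycans, had 6.06, 6.04 and 6.10 in passage 4, against 8.46, 8.42 and 8.05 in passage 3 (-2.24 ± 0.38, adjusted p = 0.00266). In these 5 genes the call was kept when any 1 of the 6 mice was left out. With the 6 compared arrays alone it was lost for Il1r1 (adjusted p = 0.0638) and kept for the other 4.

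The other genes among the 12 largest falls had differences of -2.04 to -2.29 and no overlap between the passages. Gfpt2, an enzyme that feeds the hexosamine pathway, fell by 2.29 on the log2 scale (adjusted p = 0.00634), and Spint1, an inhibitor of membrane serine proteases, by 2.25 (adjusted p = 0.0493). Kcnn4, a calcium-activated potassium channel, had 9.07, 7.90 and 7.83 in passage 4, against 10.40, 10.56 and 10.38 in passage 3 (adjusted p = 0.0349). Mreg, a regulator of organelle transport, fell by 2.14 (adjusted p = 0.0394), and Ifi202b, an interferon-inducible DNA-binding protein, by 2.04 (adjusted p = 0.0123). Niban2 fell by 2.08 (adjusted p = 0.00714) and Tmbim1 by 2.04 (adjusted p = 0.0162). These 7 genes each lost the call without passage 4 mouse 2, where adjusted p-values were 0.0812 for Gfpt2, 0.297 for Spint1, 0.272 for Kcnn4, 0.153 for Mreg, 0.0833 for Ifi202b and Niban2 and 0.158 for Tmbim1. They also lost it without passage 3 mouse 2 (all but Gfpt2) and without passage 4 mouse 3 (all but Niban2); Spint1, Kcnn4, Mreg, Ifi202b and Tmbim1 lost it without passage 3 mouse 3, Kcnn4 and Mreg without passage 3 mouse 1, and Spint1 and Mreg without passage 4 mouse 1.

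Further called falls, named after their values were seen, were the growth factor gene Hbegf (-1.41 ± 0.30, adjusted p = 0.0188), the cytokine gene Il24 (-1.15 ± 0.23, adjusted p = 0.0102) and Map2k3, a kinase upstream of p38 (-1.29 ± 0.28, adjusted p = 0.0248). Lipid synthesis enzymes among them were Gpat3 (-1.61 ± 0.30, adjusted p = 0.00714) and Pcyt1a (-1.23 ± 0.27, adjusted p = 0.0304). Tnfrsf22, a decoy receptor for the death ligand Trail in the mouse, fell by 1.48 (adjusted p = 0.00347). Tnfrsf22 kept its call without any 1 of the 6 mice, and Gpat3 lost it without passage 4 mouse 2 (adjusted p = 0.0952). Il24 lost it without passage 4 mouse 3 or passage 3 mouse 1, Map2k3 without mouse 2 or 3 of either passage, Hbegf in every such fit but that without passage 4 mouse 3, and Pcyt1a in all 6. The normal controls give a further level for the called genes, as a description only, since these genes were chosen for their passage 4 and passage 3 values. Of the 40 rises, 37 had a passage 4 mean and 15 a passage 3 mean above that of the controls. Of the 58 falls, 32 had a passage 4 mean and 58 a passage 3 mean above it. Among all genes, 46.9% had a passage 4 mean and 54.0% a passage 3 mean above it. Cd3g had a mean of 9.41 in passage 4 and 6.47 in passage 3, against 7.97 in the controls. Cd3e had 9.18 in passage 4 and 6.99 in passage 3, against 7.56 in the controls, and Cd8b1 had 8.55 in passage 4 and 6.54 in passage 3, against 7.70 in the controls. By these means the 3 T cell genes lay above the controls at passage 4 and below them at passage 3. Single mice overlapped with the controls. Cd8b1 was 7.39 in passage 4 mouse 1, against 8.17, 7.64 and 7.28 in the controls. Cd3e was 7.90 in passage 3 mouse 3, against 7.86, 7.95 and 6.87 in the controls. The means of Tigit lay otherwise, at 9.37 in passage 4 and 6.61 in passage 3, against 6.01 in the controls. Prf1 had 8.51 in passage 4 and 6.56 in passage 3, against 6.59 in the controls. Plet1 had a mean of 6.83 in passage 4 and 9.84 in passage 3, against 5.73 in the controls.

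**Figure D3:**
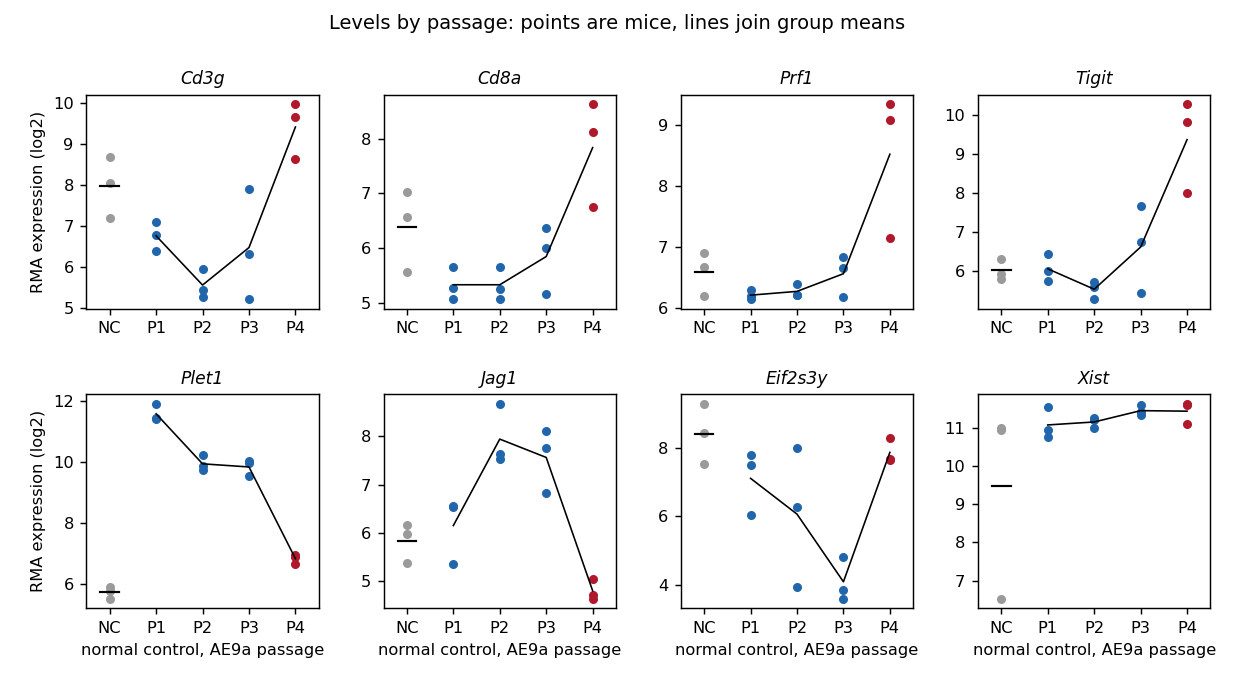
RMA level (log2, y axis) of 8 genes in the normal controls (NC) and at AE9a passages 1 to 4 (P1 to P4), 3 mice a group; points are mice, lines join the passage means and the bar marks the control mean. Cd3g, Cd8a, Prf1 and Tigit were highest at passage 4, Plet1 and Jag1 lowest of the AE9a passages there, Eif2s3y was low at passage 3, and Xist stayed above 10 in every AE9a mouse.

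Other lists had no called member, where 0.442% of all genes were called. Their values in the 6 mice give the setting of the T cell genes. All 17 erythroid genes were higher, 8 of them at an unadjusted p under 0.05, against 2.5% of all genes. Their median difference was 0.79, against -0.04 for all genes, and passage 4 mouse 1 carried most of it. Car1, the erythroid carbonic anhydrase, had 10.85, 8.16 and 6.39 in passage 4, against 5.27, 6.78 and 7.27 in passage 3 (adjusted p = 0.344). All 28 cell cycle genes were higher, with a median of 0.49; their mean levels were 8.91, 8.11 and 8.28 in passage 4, against 7.85 to 8.15 in passage 3, so mouse 1 was again the highest and mouse 2 lay inside the passage 3 range. Of 24 immediate early and inflammatory genes 21 were higher, with a median of 0.40. Basophil and mast cell genes had a median of -0.14, and Fcer1a, a chain of the IgE receptor, had 6.73, 4.28 and 3.81 in passage 4, against 7.99, 6.08 and 6.94 in passage 3 (-2.06 ± 0.53, adjusted p = 0.0782). Mature neutrophil genes (23 measured) had a median of 0.21, primary granule genes (11) -0.01, monocyte and macrophage genes (25) -0.07 and stem and progenitor genes (27) 0.02. Runx1, from which AE9a is built, was 0.45 lower (adjusted p = 0.897), and Runx1t1 0.07 lower (adjusted p = 1). Egfl7, the host gene of miR-126, differed by -0.13, with a mean level of 5.91 in passage 4 and 6.04 in passage 3. Errfi1, a feedback inhibitor of EGF receptor signals, differed by -0.42 and Spred1, an inhibitor of Ras signals, by -0.53 (adjusted p = 1 for each of the 3). The part of the erythroid and cell cycle levels of passage 4 mouse 1 in the T cell result was not tested. Cd3g, Tigit, Cd96, Cxcr6 and Prf1 passed with and without that mouse. It was the lowest of its passage in each of them, so leaving it out could only widen their differences.

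**Figure D4:**
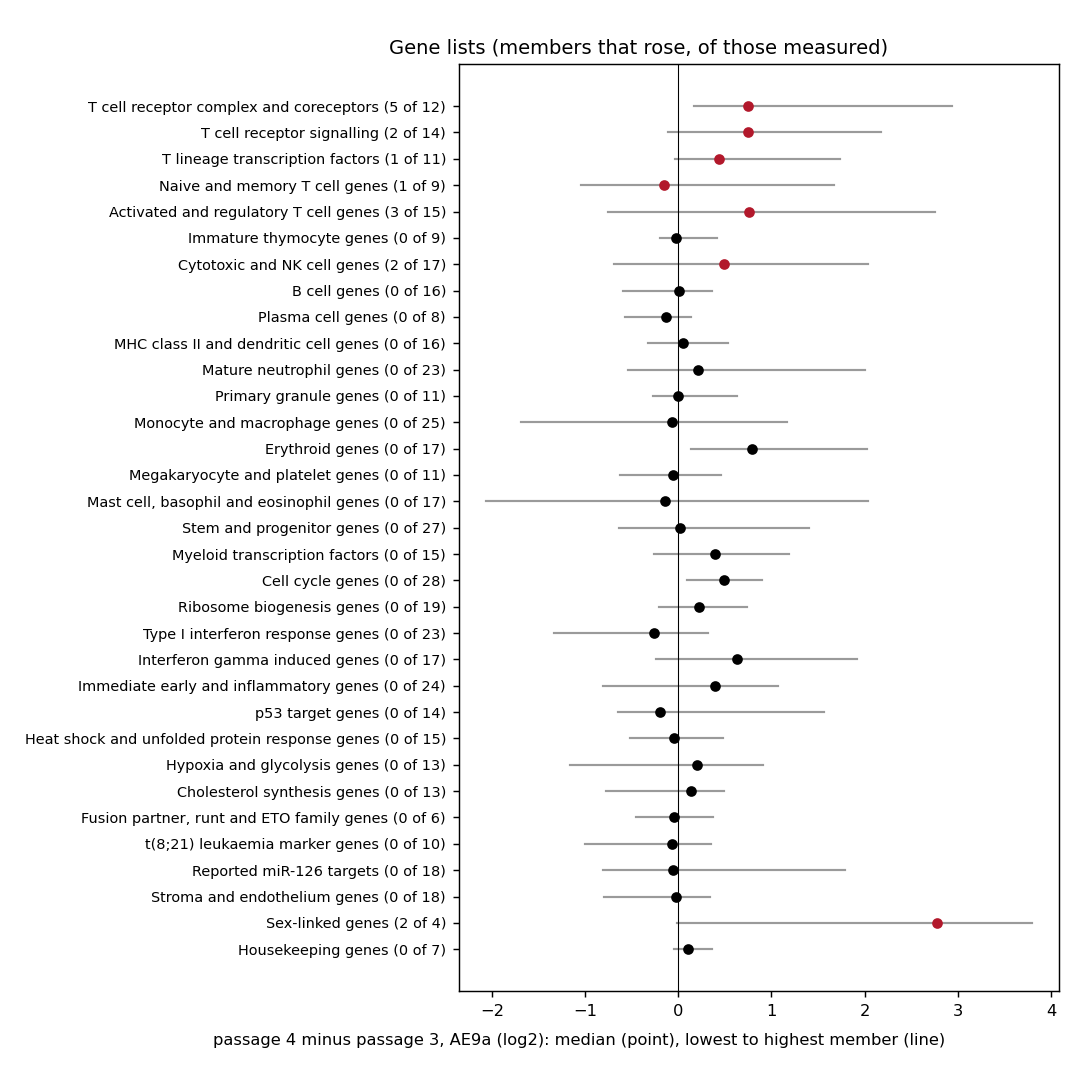
Median (point) and lowest to highest member (line) of the difference between AE9a passage 4 and passage 3 (x axis, log2) for 33 gene lists, with the number of members that rose of those measured in brackets. Red points mark lists with a member that rose; 0 members of the other lists rose, the erythroid and interferon gamma lists with positive medians among them.

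Against the mean of passages 1 and 2, passage 4 differed in 387 genes (1.74%), of which 234 rose (1.06%) and 153 fell (0.69%). This comparison shares the passage 4 arrays with the one above. The count was 121 without passage 4 mouse 2, 149 without passage 4 mouse 3, 248 without passage 2 mouse 1 and 253 without passage 1 mouse 2. Cd3g was 3.26 higher than at passages 1 and 2 (adjusted p = 2.74e-05), Tigit 3.57 (adjusted p = 8.01e-07), Prf1 2.28 (adjusted p = 1.01e-05) and Gzmb 3.43 (adjusted p = 1.5e-05). Plet1 fell by 3.94 (adjusted p = 6.73e-09). Eif2s3y was 1.29 higher and did not pass (adjusted p = 0.601), and passage 2 mice spanned 3.93 to 8.00 for it. Csta2, a cystatin family gene named after its values were seen, was 4.48 higher than at passages 1 and 2 (adjusted p = 4.27e-05), and 0.70 higher than at passage 3 (adjusted p = 1). Passage 2 mice had 4.26, 9.99 and 6.85 for Csta2, against 8.71 to 10.36 at passage 3 and 9.35 to 10.82 at passage 4. Passage 2 mouse 2 thus lay inside both later ranges. Passage 3 differed from passages 1 and 2 in 3 genes (0.0135%): Csta2 and the metallothionein gene Mt2 rose (0.00902%) and Fam167a fell (0.00451%). The mean of Mt2 was 6.50 at passage 1, 8.92 at passage 2 and 9.03 at passage 3, and that of Fam167a 7.45, 5.87 and 5.44, so passage 2 lay nearer to passage 3 than to passage 1 in both genes. The count of 3 was 34 without passage 3 mouse 1, 11 without passage 3 mouse 2 and 5 without passage 2 mouse 1. There Cd3g was 0.31 higher, Tigit 0.82 higher and Plet1 0.92 lower, none past the threshold. Of the 40 genes that rose between the last 2 passages, 26 had all 3 passage 4 arrays above all 9 earlier AE9a arrays, as had 2.03% of all genes; of the 58 that fell, 42 had them below all 9, as had 3.16% of all genes.

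The same step was measured in the other arms. In miR-126KO+AE9a mice, passage 4 minus passage 3 was -0.47 for Cd3g, 0.10 for Tigit, -0.28 for Prf1 and -0.72 for Plet1, and 0 of 22180 genes were called with limma (467 at an unadjusted p under 0.05). Of the 40 genes that rose in AE9a, 19 were higher in that arm, with a median of -0.02, against 55.6% of all genes and a median of 0.02. Of the 58 that fell, 53 were lower there, with a median of -0.50. In that arm passage 3 mouse 1 stood apart for some of the largest falls. Plet1 had 8.56, 6.23 and 6.50 at passage 3, against 6.27, 6.72 and 6.14 at passage 4. Spint1 had 8.42, 5.94 and 5.81 at passage 3, against 5.81, 5.96 and 5.44 at passage 4. The part of that mouse in the 53 was not tested. The difference between the steps of the 2 arms was called for 0 genes (0%), 593 (2.67%) at an unadjusted p under 0.05; its smallest adjusted p was 0.073, for Il1r1, which was 0.65 higher at passage 4 in that arm. That count was 34 without AE9a passage 4 mouse 1, 5 without AE9a passage 3 mouse 3 and at most 2 without any other 1 mouse of the 12. In AE9a+miR-126 mice, passage 4 minus passage 3 was -0.09 for Cd3g, 0.20 for Tigit, -0.74 for Prf1 and -0.38 for Plet1; 12 of the 40 rises were higher and 29 of the 58 falls lower there, and 48.2% of all genes were higher. The AE9a step had 98 called genes, against 412 (1.86%) in the AE9a+miR-126 step. The steps of AE9a and AE9a+miR-126 differed in 9 genes (0.0406%), 5 of them higher in AE9a (0.0225%) and 4 lower (0.018%). The count was 81 without AE9a passage 4 mouse 1, 48 without AE9a+miR-126 passage 4 mouse 2 and 16 without AE9a passage 3 mouse 1; it was 1 without AE9a passage 4 mouse 3, 4 without passage 4 mouse 2 or passage 3 mouse 2 of AE9a, and 5 without passage 3 mouse 3 or passage 4 mouse 3 of AE9a+miR-126. Among these, Prf1 had a step 2.69 larger in AE9a (adjusted p = 0.00814), Cd96 2.40 larger (adjusted p = 0.0339) and Mboat2 2.47 larger (adjusted p = 0.0117), and Il1r1 had a step 2.82 lower (adjusted p = 0.0235). All 3 passage 3 arrays of AE9a+miR-126 and 2 of its passage 4 arrays had a spread of values under 1.8 (SD over probe sets), against 1.95 to 2.06 in the 6 AE9a arrays, and the part of that in these differences was not tested.

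**Figure D5:**
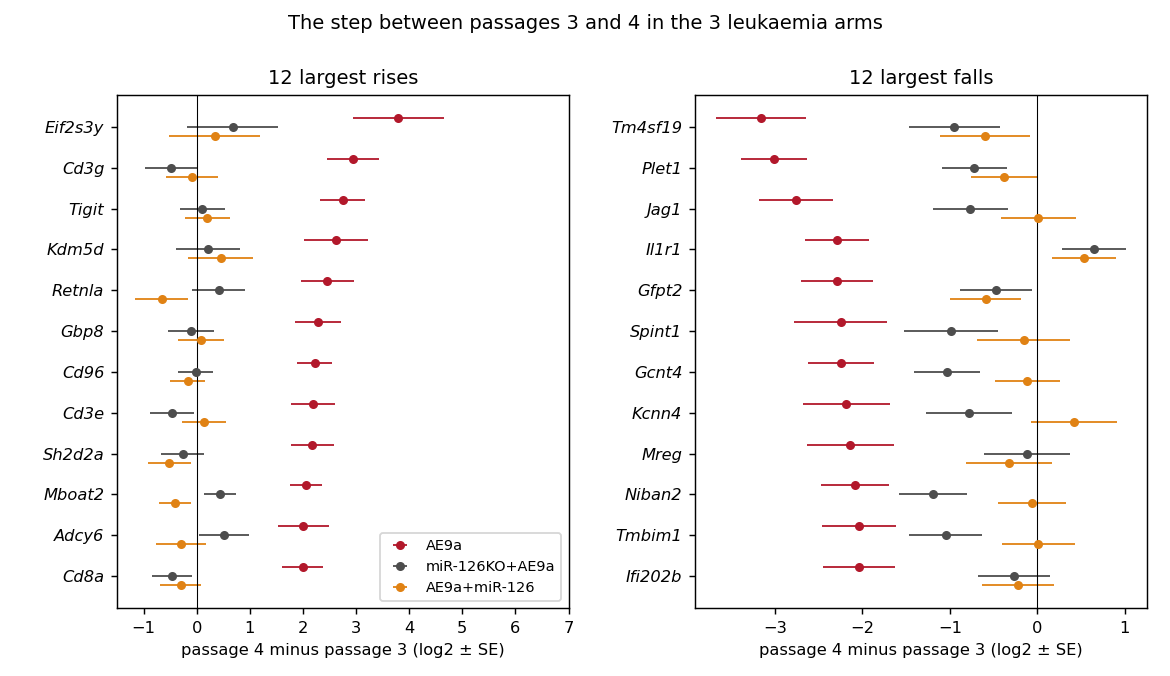
Passage 4 minus passage 3 (x axis, log2, ± standard error of the fit, 3 mice a group) for the 12 largest rises and 12 largest falls of AE9a, in AE9a (red), miR-126KO+AE9a (grey) and AE9a+miR-126 (orange). The genes were chosen on the AE9a values, so only the grey and orange points are free of that choice; for Cd3g they lie at -0.47 and -0.09.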

How the data were processed

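Values were the authors' deposited log2 expression values, 1 Affymetrix Mouse Gene 2.0 ST array per mouse, made with RMA and Partek 6.0 per the submitters' processing notes. The deposited arrays differ in spread (SD over probe sets of 1.43 to 2.08) and in median (5.38 to 5.76). Filters and batch steps were not given in the sources used here. Precision is limited by the number of arrays, and no scan or extraction batch was available to test.

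Of 27037 probe sets, 23521 had 1 symbol in the platform annotation, 1814 several and 1702 none; the probe set with the highest mean stood for each of 22180 genes. A fit with a mean for each of 13 groups took in all 39 arrays (limma 3.58.1, R 4.3.3, 26 residual degrees of freedom), with Benjamini-Hochberg adjustment over all genes of each of 5 comparisons. The procedure was run on simulated data with 50 genes changed at each fold. For passage 4 against passage 3 it recovered 5 at 1.5-fold and 34 at 2-fold, with 8 unchanged genes called. For the difference from the miR-126KO+AE9a step it recovered 15 at 2-fold and 40 at 4-fold, with 9 unchanged genes called. With 3 mice against 3, an exact permutation test of 1 value cannot go below p = 0.1.

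The comparison, the members and the 33 gene lists (484 of 538 symbols measured) were chosen with earlier results of these data known. The T cell genes at this transfer were among those results. Named genes were the 12 largest rises and falls without overlap, up to 4 members of each list, the 4 largest of each sign in each other comparison, all measured receptor complex members the 10 genes most like the CD3 mean, and Runx1, Runx1t1, Egfl7, Errfi1 and Spred1, passing over predicted genes, small RNAs and odorant receptors. Ptprc, Foxp3, Pdcd1, Lag3, Gzma, Ncr1, Glp1r, Tlr3, Retnla, Csta2, Hbegf, Il24, Map2k3, Gpat3, Pcyt1a and Tnfrsf22 were added or kept with their values seen. Alternatives covered samples, blocks, priors, filters, probe sets, weights, normalization, array spread, a minimum fold and leaving out each mouse. Replicate numbers were taken from titles, and the labels do not say whether they pair mice.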

Additional observations from a re-analysis of the deposited data

Results flagged for a closer look

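The step between passages 3 and 4 differed between AE9a and AE9a+miR-126 mice by an interaction test for 9 genes; the AE9a step minus the AE9a+miR-126 step was 6.42 for Retnlg, a neutrophil granule gene, 2.69 for Prf1, 2.61 for Ngp, another neutrophil granule gene, 2.47 for Mboat2 and 2.40 for Cd96. It was -2.82 for Il1r1, -1.81 for Anxa7, -1.67 for Usp31 and -1.64 for Chtf8. In Retnlg, Ngp and Chtf8 the AE9a step itself was 0.70, 0.10 and -0.27, and did not pass (limma adjusted p = 1 for each).

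The gene comparison left out 3516 probe sets that carry more than 1 symbol or lack one. Of these, 6 (0.171%) passed between passage 4 and passage 3 in a limma fit of all probe sets, 3 of them higher at passage 4.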

How the results depend on the processing

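The 98 calls between passage 4 and passage 3 became 208 with the AE9a and control arrays alone, 1896 with array weights, 179 after cyclic loess, 222 with array spread as a covariate and 208 without arrays of low spread, and 19 to 130 without 1 mouse; on the 6 compared arrays alone there were 88, of which 31 were shared. Of 45 called genes named in the text, 32 lost the call on the 6 arrays alone, 10 with AE9a and control arrays alone, 6 without arrays of low spread and 7 to 32 without 1 mouse, and 0 turned direction; Cd3g, Tigit, Cd96, Mboat2, Prf1, Cxcr6, Il1r1, Gpat3 and Tnfrsf22 lost it under 1 alternative each, and Tm4sf19, Plet1, Jag1 and Gcnt4 kept it in all 18. For passage 4 against passages 1 and 2 (387), counts were 1171 on the compared arrays alone, 930 with AE9a and control arrays, 2508 with weights, 761 after loess, 886 with spread, 1044 without low spread, 256 at 2-fold and 121 to 329 without 1 mouse. For passage 3 against passages 1 and 2 (3), they were 10 with AE9a and control arrays, 888 with weights, 6 with spread, 1 without low spread and 2 to 34 without 1 mouse. For the difference from the miR-126KO+AE9a step (0), they were 1 without dim genes, with spread or without low spread, 272 with weights and 0 to 34 without 1 mouse. For the difference from the AE9a+miR-126 step (9), they were 5 on the compared arrays alone, of which 1 was shared, 18 without dim genes, 3866 with weights, 40 after quantile normalization and 1 to 81 without 1 mouse; without low-spread arrays it could not be fitted, as 0 passage 3 arrays of that arm remained. The cause of these moves was not tested. Differences of uncalled genes turned sign: Xist 0.0223 and Gzma 0.0227 after loess, Gzma 0.0069 after quantile normalization and Runx1t1 0.0498 with weights. Without 1 mouse, the differences ranged over both signs for Mt2 (-0.215 to 0.038), Fam167a (-0.1784 to 0.0147), Runx1t1 (-0.1612 to 0.0736), Xist (-0.107 to 0.1596), Thy1 (-0.1404 to 0.5221), Ptprc (-0.1303 to 0.0286), Gzma (-0.1096 to 0.0443), Ncr1 (-0.0967 to 0.1922), Egfl7 (-0.3776 to 0.0838) and Ngp (-0.0083 to 0.1947).

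Same-numbered mice of the passages did not deviate together (correlations of -0.286, -0.25 and -0.151), and differently numbered mice had -0.221 to 0.298. With 3 mice a passage these values cannot decide whether the numbers pair mice. With the replicate number as a block the counts were 89, 371, 4, 0 and 6, in the order above. Adcy6, Spint1, Mreg and Fasl lost and Fcer1a gained the call under the block. Dim genes have little signal over background, and with 3 mice a group small differences go undetected.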

Other observations

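Some genes outside the T cell lists differed at passage 4 from the mean of passages 1 and 2 without passing against passage 3. Sox4, a transcription factor of progenitor cells, had levels of 7.59, 8.88 and 8.84 in passage 4, against 8.27, 6.24 and 6.60 in passage 3 (1.40 ± 0.49, limma adjusted p = 0.365). It was 3.00 higher than at passages 1 and 2 (adjusted p = 6.04e-05), and passage 3 mouse 1 lay among the passage 4 mice. Egr3, an immediate early transcription factor, had 7.55, 9.29 and 9.44 in passage 4, against 8.19, 7.54 and 7.54 in passage 3, and was 2.26 higher than at passages 1 and 2 (adjusted p = 0.000191). Nr4a2, an orphan nuclear receptor, was 1.94 higher than at passages 1 and 2 (adjusted p = 0.000442) and 0.91 higher than at passage 3 (adjusted p = 0.574). Iigp1 and Gbp4 were 2.39 and 2.66 higher than at passages 1 and 2 (adjusted p = 0.00212 and 0.000437).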
